A study of Mus musculus with 12 samples.

Results

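The genes described here are 44 interferon-stimulated genes of the mouse, followed in the RNA of lung lymphatic endothelial cells (LECs), the cells that line the vessels draining fluid and immune cells from the lung. The members were taken by gene symbol, as paired with Ensembl identifiers in GENCODE M21, and all 44 were found among the 52636 identifiers of the count files. All 44 passed the filter on low counts, which left 21440 genes for testing. The labels call the cells lymphatic endothelial cells of lung, and the study's methods describe sorting them by flow cytometry as GFP+, CD31+, EpCAM- and lineage marker-negative cells of Prox1-EGFP mice, in which the promoter of the lymphatic transcription factor Prox1 drives a green fluorescent protein. The mice of every group carried this reporter and were of either sex. They breathed room air (RA) or whole-body cigarette smoke (CS), starting at 6 weeks of age.

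Acute CS and acute RA stand for 8 weeks of exposure and for age-matched controls, with 1 female (F) and 1 male (M) library in each group. Chronic CS and chronic RA stand for 24 weeks or more, in mice that the labels call aged. Chronic CS held 1 female and 4 male libraries (F, M1 to M4) and chronic RA held 1 female and 2 male libraries (F, M1 and M2). By the study's methods each acute library pooled mice of the same condition, while the chronic libraries were not pooled. The labels name 1 sex for each library. The spread between acute libraries is therefore a spread between pools, and in the acute groups sex and library cannot be told apart. Total counts were lowest in chronic CS F, at 18821438, and highest in acute RA F, at 56998590, and the shallowest libraries were chronic CS F, M1 and M2. No libraries of a group agreed within sampling noise.

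Type I interferons signal through a receptor made of Ifnar1 and Ifnar2, and interferon gamma through Ifngr1 and Ifngr2. Receptor kinases of the Jak family then activate Stat proteins. A complex of Stat proteins with Irf9 binds the interferon-stimulated response element in the promoters of many antiviral genes, while Stat dimers formed after interferon gamma bind the gamma-activated site, which is common in the genes of the immunity related GTPases and of Irf1. The induced proteins sense viral RNA and DNA, cut or trap viral RNA, hold budding virus at the membrane or attack the vacuoles of intracellular microbes. Many of them are also expressed at a lower level without infection.

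The members lay on 14 chromosomes, several in clusters of related genes. The 4 Ifit genes lay together on chromosome 19, and the 3 guanylate binding protein genes on chromosome 3. The 5 oligoadenylate synthetase genes were all on chromosome 5, with Oasl1 and Oasl2 together and apart from Oas1a, Oas2 and Oas3. Promoter sequences from RefSeq (GRCm38.p6), 250 bases before to 50 bases after each start, matched 33 of the 44 members by symbol. Dhx58, Zbp1, Oas2, Mx1, Mx2, Usp18, Parp9, Parp14, Iigp1, Ifi27 and Rtp4 had no entry. The core of the response element was searched as GAAANNGAAA on both strands, where N is any base, and the core of the gamma-activated site as TTCNNNGAA, which reads the same on both strands. At least 1 window of 17 of the 33 members (51.5%) held the response element core, against 4.0% of the 27025 genes in the table. The core of the gamma-activated site was in 9 members (27.3%) against 9.6% of all genes, 5 members held both and 12 held neither. The search used letters only, and windows numbered 1.18 per member and 1.22 per gene overall.

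A stretch of 100 bases upstream of the start is shown for 7 members. Isg15, Ifit3 and Ifit3b stand for the response element, Bst2 for the member with the highest level, Igtp and Gbp2 for the GTPases, and Oasl2 is the member that differed after acute smoke. Capitals mark the letters of the 2 cores. The stretches are chr4:156200830-156200929 (minus strand), chr19:34583362-34583461 (plus), chr19:34607758-34607857 (plus), chr8:71537542-71537641 (minus), chr11:58199456-58199555 (plus), chr3:142620559-142620658 (plus) and chr5:114896834-114896933 (plus), each written 5′ to 3′ in the direction of the gene.
Isg15: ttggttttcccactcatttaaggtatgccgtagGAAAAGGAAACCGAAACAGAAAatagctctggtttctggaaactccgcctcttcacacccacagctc
Ifit3: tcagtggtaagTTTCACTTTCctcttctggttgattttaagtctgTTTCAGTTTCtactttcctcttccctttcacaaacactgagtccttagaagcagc
Ifit3b: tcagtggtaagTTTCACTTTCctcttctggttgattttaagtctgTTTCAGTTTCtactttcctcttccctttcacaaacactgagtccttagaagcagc
Bst2: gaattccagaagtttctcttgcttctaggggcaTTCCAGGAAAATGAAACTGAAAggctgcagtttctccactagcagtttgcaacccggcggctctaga
Igtp: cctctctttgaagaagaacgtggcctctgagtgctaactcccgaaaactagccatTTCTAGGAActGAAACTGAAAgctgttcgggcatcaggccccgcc
Gbp2: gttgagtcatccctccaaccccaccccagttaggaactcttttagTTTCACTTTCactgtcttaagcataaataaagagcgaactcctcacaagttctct
Oasl2: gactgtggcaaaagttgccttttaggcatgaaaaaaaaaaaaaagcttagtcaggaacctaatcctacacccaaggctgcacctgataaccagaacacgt
Isg15 held 3 overlapping copies of the response element core. Ifit3 and Ifit3b held 2 copies each, on the opposite strand, and their stretches were identical over 100 of 100 bases. In Bst2 a gamma-activated site core ran into 2 overlapping response element cores, and in Igtp the cores lay next to each other. Neither core occurred in the window of Oasl2.

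In room air mice the members spanned a wide range of levels (plot of levels in room air libraries). Levels were taken as CPM, counts scaled to a fixed library total, and as FPKM, the CPM divided by kilobases of exon. In FPKM, the members' mean over the 5 RA libraries had a median of 10.3, with 2 members above 100, 21 between 10 and 100, 17 between 1 and 10 and 4 at 1 or less. Bst2, or tetherin, which holds budding virions at the cell surface, had the highest mean, 384 ± 40.8 FPKM (SD, n = 5), and made up 34.9% of the members' summed level. Ifi27, an interferon-induced membrane protein, followed with 140 ± 21.8 FPKM, and no RA library of Ifi27 reached the lowest of Bst2. Gbp2, Ifi35 and Irf1 came next, with 51.5 ± 10.1, 49.8 ± 3.15 and 45.7 ± 6.28 FPKM, and did not differ beyond their spread. Isg15, a ubiquitin-like modifier, had 36.3 ± 3.80 FPKM. At the other end Epsti1 (0.398 ± 0.291), Mx1 (0.272 ± 0.175), Oas2 (0.165 ± 0.136) and Oas3 (0.057 ± 0.085 FPKM) had the lowest means, and Oas3 had no count in acute RA M.

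**Figure D1:**
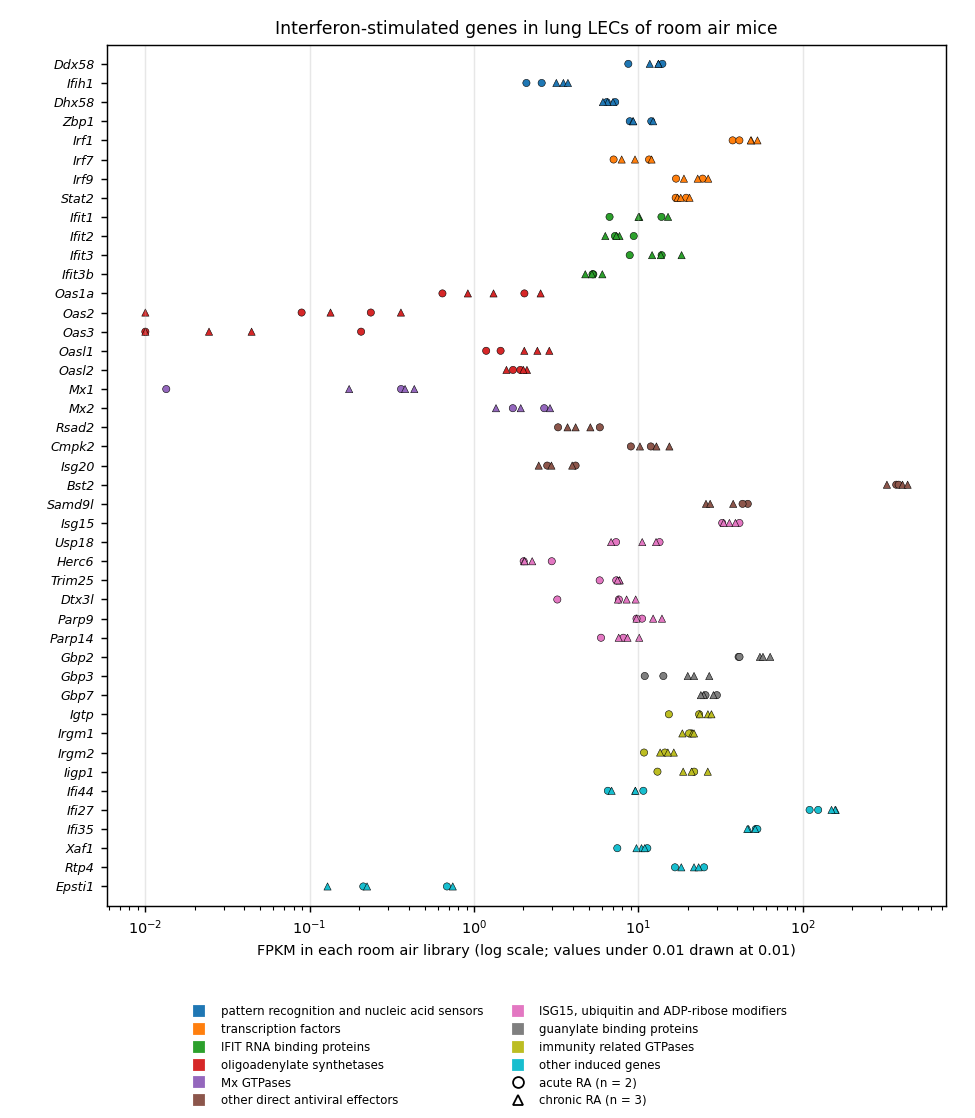
Level of each of the 44 members in the 5 room air libraries, in FPKM on a log axis, with circles for acute RA, triangles for chronic RA and colours for the role of the gene. Bst2 and Ifi27 lie furthest right, with means of 384 and 140 FPKM, and Oas2 and Oas3 furthest left.

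Interferon genes themselves were barely detected in these cells. Ifna1, Ifna2, Ifne, Ifnl2 and Ifnl3 had no count in any library. A count of 0 allows up to 0.158 CPM in the shallowest library, taking 3 counts as the limit, and this covers counting error only. Ifna4 had 0.029 CPM in chronic RA M1, Ifnk reached 0.115 CPM in chronic RA M1, and Ifnb1 was counted only in acute CS M, at 0.152 CPM. Ifng, the product of T and natural killer cells, was the only ligand of 9 that passed the filter, and its highest level was 1.04 CPM in acute CS F.

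Most receptor genes were expressed in every library. Ifngr1 ranged from 306 to 431 CPM, Ifnar1 from 144 to 202 CPM, Ifnar2 from 127 to 166 CPM and Ifngr2 from 55.9 to 110 CPM. Il10rb, a shared chain of the interferon lambda receptor, ranged from 74.1 to 109 CPM, while Ifnlr1, its specific chain, did not exceed 1.94 CPM. None of the 6 receptor genes passed an adjusted p of 0.05 in any comparison by edgeR's quasi-likelihood test. The lowest adjusted p was that of Ifngr2 for the difference between the acute and the chronic effect (0.0923). Ifngr2 had 77.5 and 86.5 CPM in acute RA, 110 and 95.2 in acute CS, 84.6 to 102 in chronic RA and 55.9 to 72.1 in chronic CS, so that its CS libraries lay above RA in the acute mice and below RA in the chronic mice.

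The first comparison asked what 8 weeks of smoke did to the members. Of the 44, 1 rose and 0 fell at an adjusted p under 0.05 (edgeR), against 3.47% of all genes tested. By DESeq2 5 members passed (11.4%), all with a higher level, against 9.15% of all genes in either direction. The member that rose by edgeR was Oasl2 (ENSMUSG00000029561, chr5:114896936-114912234, GRCm38), an interferon-induced relative of the oligoadenylate synthetases that carries ubiquitin-like domains. Its level was 12.2 CPM (F) and 11.01 CPM (M) in acute RA, and 83.3 (F) and 31.0 (M) in acute CS. The groups did not overlap, and the female CS library stood far above the male one. The log2 fold change was 2.30 ± 0.39 (SE, adjusted p = 0.0106 by edgeR). Within the female libraries the log2 difference was 2.77, and within the male libraries 1.49. The adjusted p was 0.0714 without acute CS F, 0.134 without acute RA M, 0.0994 without acute RA F, 0.124 when the acute groups were fitted alone and 5.33e-07 by DESeq2, so both tools made the call with all libraries and edgeR lost it in these other settings, with a log2 fold change of 1.42 or more in each case.

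In bulk libraries such as these, fewer cells of a type and less RNA per cell cannot be told apart. The acute CS libraries differed from acute RA in markers of many cell types. The summed level of 7 lymphatic endothelial markers was 13600 and 15400 CPM in acute RA and 5950 (F) and 9160 (M) in acute CS, and Prox1 itself was at 2239 and 2476 against 1042 and 1262 CPM. The sum of 7 leukocyte markers was 234 and 226 CPM against 1740 (F) and 1230 (M), and that of 9 alveolar macrophage markers was 812 and 717 against 2540 in either CS library. Monocyte and dendritic cell markers summed to 41.9 and 21.7 against 528 (F) and 164 (M), lymphoid markers to 15.6 and 18.4 against 184 and 194, and neutrophil markers to 28.6 and 10.6 against 1120 (F) and 21.6 (M). Alveolar epithelial markers summed to 737 and 1050 against 6270 (F) and 210 (M), blood endothelial markers to 2770 and 3620 against 6220 and 6260, and mesenchymal markers to 133 and 207 against 642 and 1030 CPM. By single markers, each acute CS library was above each acute RA library for 6 of 7 leukocyte, 8 of 9 macrophage, 6 of 9 monocyte and dendritic cell, 9 of 9 lymphoid, 2 of 7 neutrophil, 2 of 8 epithelial, 8 of 10 blood endothelial and 9 of 9 mesenchymal markers, and below for 6 of 7 lymphatic markers. The remaining macrophage marker was below RA in each acute CS library, and the remaining lymphatic marker was above RA in each. Marco, Xcr1, Retnlg and Ackr1 were at 0 in acute RA M, Siglecf and Cd8a in acute RA F, and Ly6g in every acute library but CS F. The part of these cells in the level of Oasl2 and of the other members was not tested.

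Below the threshold, 8 members had an unadjusted p under 0.05 with a higher level in acute CS, Oasl2 included (18.2%), where 10.7% of all genes did, and 3 with a lower level (6.8%), where 5% did. With the acute groups fitted alone these counts were 5 (11.4%), against 12.7% of all genes, and 3 (6.8%), against 5.98%. Leaving out 1 acute library moved the 8 up or down and lowered the 3, but such a fit leaves 1 library in a group. Complete separation of the acute libraries was found for 14 members on the higher side (31.8%), against 27.4% of all genes, and for 6 on the lower side (13.6%), against 22.5%. With 2 against 2 libraries an exact permutation test cannot go below a two-sided p of 0.333. The median log2 fold change of the members was 0.18, and that of all genes 0.04, with 25 of 44 members (56.8%) and 53.0% of all genes above 0. It turned negative without acute CS F (-0.206) and without acute RA M (-0.039).

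**Figure D2:**
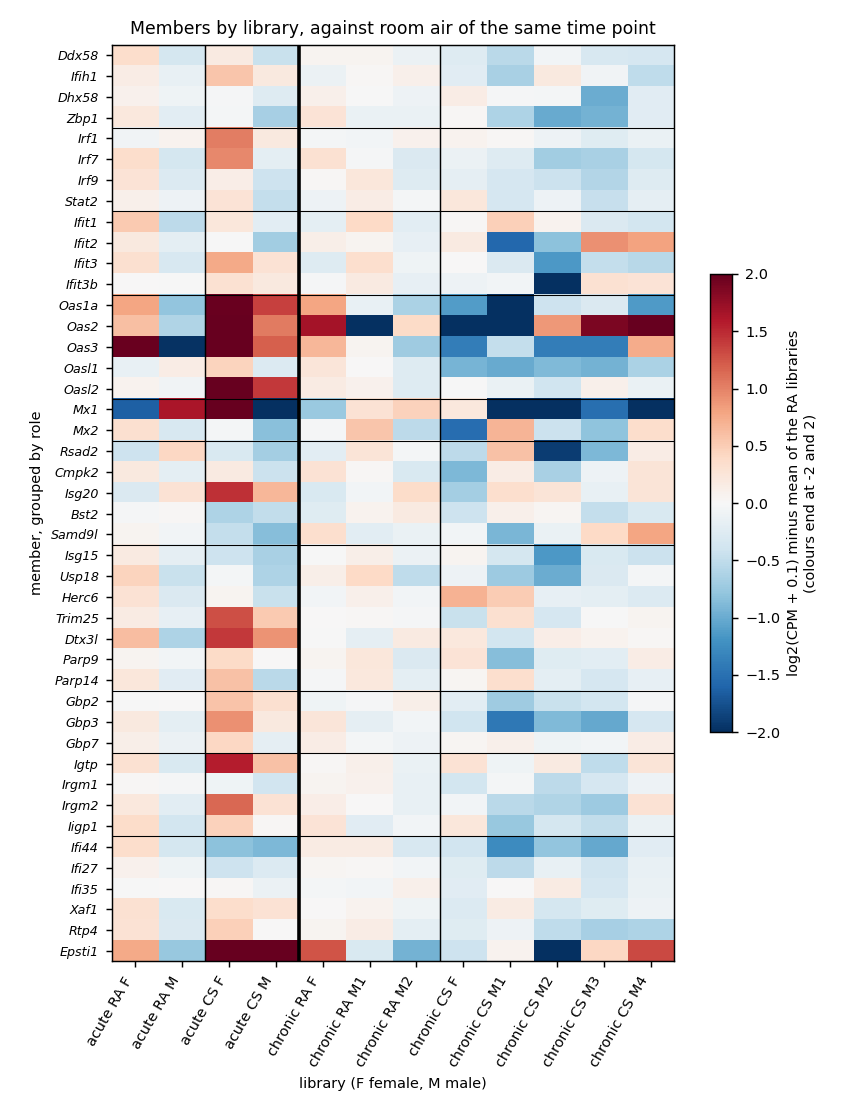
Members (rows, by role) in the 12 libraries (columns), as log2(CPM + 0.1) minus the mean of the RA libraries of the same time point, red above and blue below, with colours ending at -2 and 2. Oasl2, Oas1a, Oas2 and Epsti1 are red in the acute CS columns, and most rows are pale blue in the 5 chronic CS columns.

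The acute CS libraries did not deviate alike. Relative to the mean of acute RA, the members' median log2 deviation in acute CS was 0.40 for the female library, with 32 of 44 above, and -0.18 for the male library, with 20 of 44 above. In the RA pair the female library was also the higher one for 36 of 44 members, with a median log2 difference of 0.39 where that of all genes was 0.00. In the CS pair it was higher for 41 of 44, with a median of 0.56 against 0.03 for all genes. Compared within sex, 28 of 44 members (63.6%) were higher in CS among the females, against 52.2% of all genes, and 22 of 44 among the males, against 51.1%. In both sexes 21 members (47.7%) were higher, against 34.0% of all genes, and 15 (34.1%) were lower, against 29.3%.

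The nucleic acid sensors were close to even after acute smoke. None of the 4 had an unadjusted p under 0.05, and their log2 fold changes ran from -0.33 to 0.38. Ddx58, the RNA sensor RIG-I, had 98.7 and 61.2 CPM in acute RA F and M and 88.2 and 57.2 in acute CS F and M. Zbp1, a sensor of Z-form nucleic acid, had 42.3 and 31.3 against 35.4 and 22.99 CPM. For Ddx58 and Zbp1 the male library was the lower one in either group, and the CS range overlapped the RA range.

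Among the transcription factors, Irf1, which drives genes induced by interferon gamma, had 149 and 164 CPM in acute RA F and M and 316 and 179 in acute CS F and M. The log2 fold change was 0.66 ± 0.22 (adjusted p = 0.144, edgeR; 0.0426 by DESeq2), and within sex it was 1.09 in females and 0.13 in males. Irf7, the factor that amplifies interferon production, had 43.9 and 26.7 CPM in acute RA against 66.9 and 29.9 in acute CS, with a log2 fold change of 0.46 ± 0.37. Irf9 had 133 and 91.3 CPM against 120 and 83.0, and Stat2, its partner, 116 and 100 CPM against 131 and 77.0. Irf9 and Stat2 overlapped between the groups.

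The IFIT proteins bind viral RNA. Ifit3 had 24.2 and 15.5 CPM in acute RA F and M and 32.8 and 23.6 in acute CS F and M, a log2 fold change of 0.51 ± 0.37. Ifit3b had 10.6 and 10.5 against 13.2 and 12.2 CPM, a log2 fold change of 0.26 ± 0.59. Of the 50-base stretches of Ifit3, 51.2% also occur in other genes, mostly Ifit3b, so the levels of this pair are uncertain. None of the 4 IFIT genes had an unadjusted p under 0.05.

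The active oligoadenylate synthetases make the small messenger that activates the RNA-cutting enzyme RNase L. All 5 members of this group had a positive log2 fold change after acute smoke, where 53.0% of all genes had one. The values ran from 0.13 to 2.74, but Oasl2 alone passed the threshold. Oas1a had 3.82 and 1.21 CPM in acute RA F and M against 8.79 and 5.75 in acute CS, and Oas2 had 1.05 and 0.397 against 8.22 and 1.45. Oas3 had 1.45 and 0 against 4.81 and 0.803, and Oasl1 had 3.09 and 3.78 against 4.71 and 2.82. For Oas3 and Oasl1 the groups overlapped. The SE of the log2 fold change was 1.27 in the median over the group, and the others were counted at low levels. Of the 50-base stretches of Oas1a, 57.6% are shared, mostly with Oas1g. The Mx GTPases, which block incoming virus, were low too. Mx1 had 0.051 and 1.36 CPM in acute RA F and M against 2.34 and 0, and Mx2 had 9.66 and 6.22 against 7.52 and 4.32.

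The direct effectors with the highest levels had lower values in acute CS. Bst2 had 335 and 346 CPM in acute RA F and M and 222 and 241 in acute CS F and M, and the groups did not overlap. The log2 fold change was -0.56 ± 0.21 (adjusted p = 0.208, edgeR). Samd9l, a restriction factor of poxviruses, had 251 and 234 against 174 and 135 CPM. Isg20, an exonuclease, went the other way with 5.19 and 7.72 against 17.5 and 10.1 CPM (adjusted p = 0.256, edgeR).

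Isg15 had 31.2 and 24.5 CPM in acute RA F and M and 20.8 and 17.5 in acute CS F and M. Each CS library was below each RA library, with a log2 fold change of -0.54 ± 0.32 (adjusted p = 0.475, edgeR). Within the same role group, Trim25, the ubiquitin ligase that acts on Ddx58, had 42.2 and 33.5 against 92.0 and 53.9 CPM, a log2 fold change of 0.95 ± 0.29 (adjusted p = 0.109, edgeR; 0.0201 by DESeq2). Dtx3l, the ubiquitin ligase partner of Parp9, had 43.6 and 18.4 against 75.9 and 52.6 CPM, a log2 fold change of 1.05 ± 0.34 (adjusted p = 0.144, edgeR; 0.0371 by DESeq2). Dtx3l and Parp9 overlap on opposite strands, and whether counting used strand is not given in the sources used here. Parp9 had 51.3 and 47.5 against 64.2 and 49.8 CPM.

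The guanylate binding proteins and the immunity related GTPases, which attack vacuoles of intracellular microbes and respond strongly to interferon gamma, had positive log2 fold changes in 3 of 3 and 3 of 4 genes, where 53.0% of all genes had one. None passed the threshold by edgeR, and Gbp7 and Iigp1 overlapped between the groups. Igtp (Irgm3) had 47.4 and 31.0 CPM in acute RA F and M and 114 and 57.9 in acute CS F and M, a log2 fold change of 1.13 ± 0.34 (adjusted p = 0.107, edgeR; 0.0176 by DESeq2). Gbp2 had 102 and 104 against 153 and 129 CPM (adjusted p = 0.302, edgeR). Iigp1 had 127 and 76.1 against 135 and 100 CPM, with overlapping groups. Irgm2, which overlaps Igtp on the same strand, had 53.5 and 39.95 against 102 and 56.5 CPM.

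Of the other induced genes, Ifi27 had 182 and 162 CPM in acute RA F and M and 129 and 142 in acute CS F and M (adjusted p = 0.283, edgeR), and Ifi44 had 65.7 and 39.97 against 28.9 and 27.4 CPM (adjusted p = 0.218, edgeR). Both were lower in each CS library than in each RA library. Epsti1 (epithelial stromal interaction 1) had 1.59 and 0.492 against 9.89 and 11.5 CPM, a log2 fold change of 3.36 ± 1.43 (adjusted p = 0.279, edgeR).

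**Figure D3:**
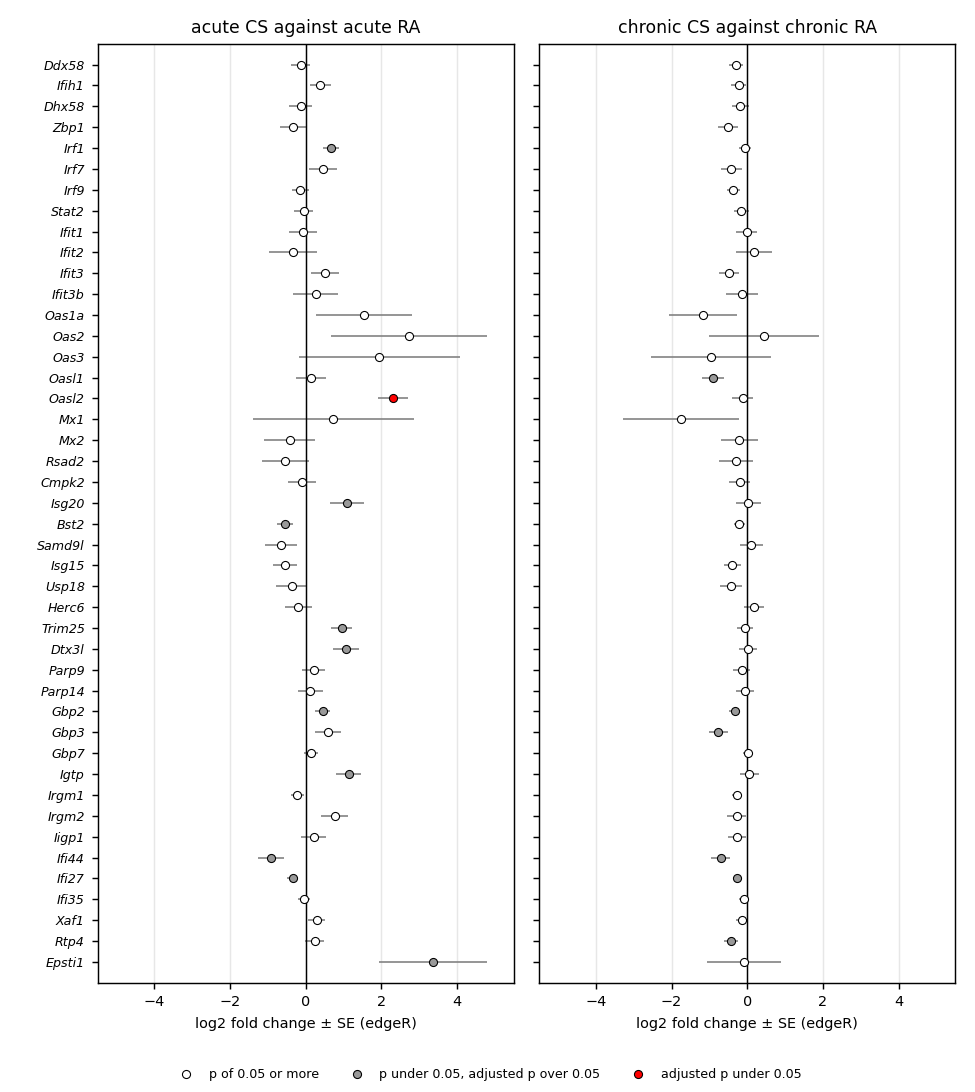
Log2 fold change ± SE from edgeR for the 44 members (rows, by role), in acute mice (left) and chronic mice (right). Filled red marks an adjusted p under 0.05, reached by Oasl2 on the left alone, and grey an unadjusted p under 0.05. On the right 36 of 44 points lie below 0.

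The second comparison asked the same after 24 weeks or more. No member passed an adjusted p of 0.05 in chronic CS against chronic RA by edgeR, nor did any gene tested (0%). By DESeq2, 1 member (2.3%) did, Oasl1 (adjusted p = 0.0439), against 2.44% of all genes. At an unadjusted p under 0.05 there were 6 members with a lower level in CS (13.6%), where 5.35% of all genes had one, and 0 with a higher level, where 5.57% had one. The 6 became 0 without chronic RA F (against 2.97% of all genes), 2 without chronic RA M1 (3.37%), 10 without chronic CS F (5.26%) and 3 when scaled by library size alone (3.13%). Chronic CS and chronic RA did not overlap for 3 members on the lower side (6.8%), against 5.49% of all genes, and for 0 on the higher side, against 3.92%.

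Most members were slightly lower in chronic CS. The log2 fold change was below 0 for 36 of 44 members (81.8%) and for 48.5% of all genes, and its median was -0.21 against 0.01. In 37 of 44 members it was smaller than 0.5 in size, and the median SE was 0.25. The median lay between -0.30 and -0.18 when any 1 library of these groups was left out, and was -0.122, against 0.1 for all genes, when scaled by library size alone, with 32 of 44 members below 0. Among the males 37 of 44 members (84.1%) were lower in CS, against 54.2% of all genes, with a median of -0.28 where that of all genes was -0.05, and between the 2 females 31 of 44 (70.5%) were lower, against 51.7%, with a median of -0.19 against -0.03. The members have regulators in common, so their 44 values are not independent of one another.

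**Figure D4:**
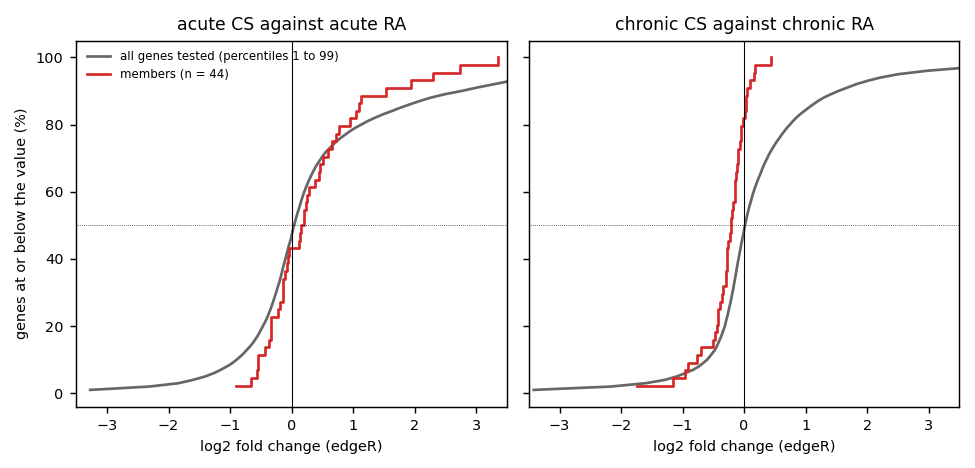
Cumulative share of genes by log2 fold change (edgeR) for the 44 members (red steps) and all genes tested (grey line), in acute mice (left) and chronic mice (right). In the chronic panel the red steps lie left of the grey line over most of its range, with medians of -0.21 and 0.01, and in the acute panel the medians are 0.18 and 0.04.

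Oasl1, a negative regulator of Irf7 translation, had the smallest p. Its level was 7.49, 6.34 and 5.28 CPM in chronic RA F, M1 and M2 and 3.26, 3.08, 3.37, 3.24 and 4.05 in chronic CS F and M1 to M4. All 5 CS libraries lay below the 3 RA libraries, and the log2 fold change was -0.90 ± 0.29 (adjusted p = 0.333, edgeR). Gbp3 had 88.2, 65.2 and 71.2 CPM in chronic RA and 56.03, 27.6, 40.1, 36.6 and 59.0 in chronic CS, again without overlap, with a log2 fold change of -0.77 ± 0.25 (adjusted p = 0.347, edgeR). Ifi27 had 233, 231 and 220 CPM in chronic RA and 193, 158, 206, 175 and 206 in chronic CS, with a log2 fold change of -0.28 ± 0.11 (adjusted p = 0.396, edgeR). Ifi44, Rtp4 and Gbp2, the remaining members at an unadjusted p under 0.05, had log2 fold changes of -0.70, -0.42 and -0.34.

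The transcription factors and sensors were below 0 in all 8 cases. Irf7 had 45.4, 36.0 and 29.9 CPM in chronic RA F, M1 and M2 and 33.9, 30.6, 22.4, 23.4 and 28.5 in chronic CS F and M1 to M4. Irf9 had 124, 143 and 102 CPM against 108, 96.1, 90.2, 81.1 and 102. Stat2 had 103, 121 and 107 CPM against 129, 87.4, 102, 80.3 and 97.7, and Irf1 had 193, 192 and 211 CPM against 209, 203, 186, 169 and 181. These 4 genes overlapped between the groups, with log2 fold changes from -0.42 to -0.07. Zbp1 had 43.4, 32.7 and 32.9 CPM against 36.6, 23.6, 17.9, 18.7 and 30.9, and Ddx58 had 93.5, 93.3 and 82.7 CPM against 75.0, 61.7, 86.8, 71.4 and 71.4.

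Isg15 had 27.1, 29.5 and 24.97 CPM in chronic RA F, M1 and M2 and 28.04, 21.3, 12.2, 22.0 and 20.1 in chronic CS F and M1 to M4, with a log2 fold change of -0.39 ± 0.23 (adjusted p = 0.546, edgeR). Only the female CS library reached the RA range. Ifit3 had 21.1, 32.0 and 23.9 CPM against 25.4, 20.6, 11.3, 18.1 and 17.2, and Ifit3b had 10.4, 12.1 and 9.51 against 9.93, 10.2, 2.20, 13.2 and 12.9. For Isg15, Ifit3 and Ifit3b the lowest library was chronic CS M2.

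Oasl2 had 13.4, 12.7 and 10.04 CPM in chronic RA and 11.9, 10.9, 9.06, 12.8 and 10.9 in chronic CS, so that all 8 chronic libraries lay near the acute RA pair. Its log2 fold change was -0.12 ± 0.27 (adjusted p = 0.903, edgeR). Igtp had 53.6, 56.3 and 47.9 CPM against 64.3, 49.3, 59.7, 37.0 and 63.0, Gbp2 had 138, 144 and 160 against 127, 89.5, 107, 114 and 145, and Iigp1 had 154, 109 and 123 against 149, 75.5, 99.5, 90.7 and 116. Bst2 had 294, 366 and 393 CPM against 261, 373, 356, 250 and 282. Mx1 had 0.658, 1.44 and 1.64 CPM against 1.37, 0.088, 0, 0.343 and 0.090, and Mx2 had 6.95, 10.5 and 4.92 against 2.42, 11.4, 5.28, 4.01 and 9.11. Apart from Oasl1, Gbp3 and Ifi27, every member had overlapping chronic groups.

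**Figure D5:**
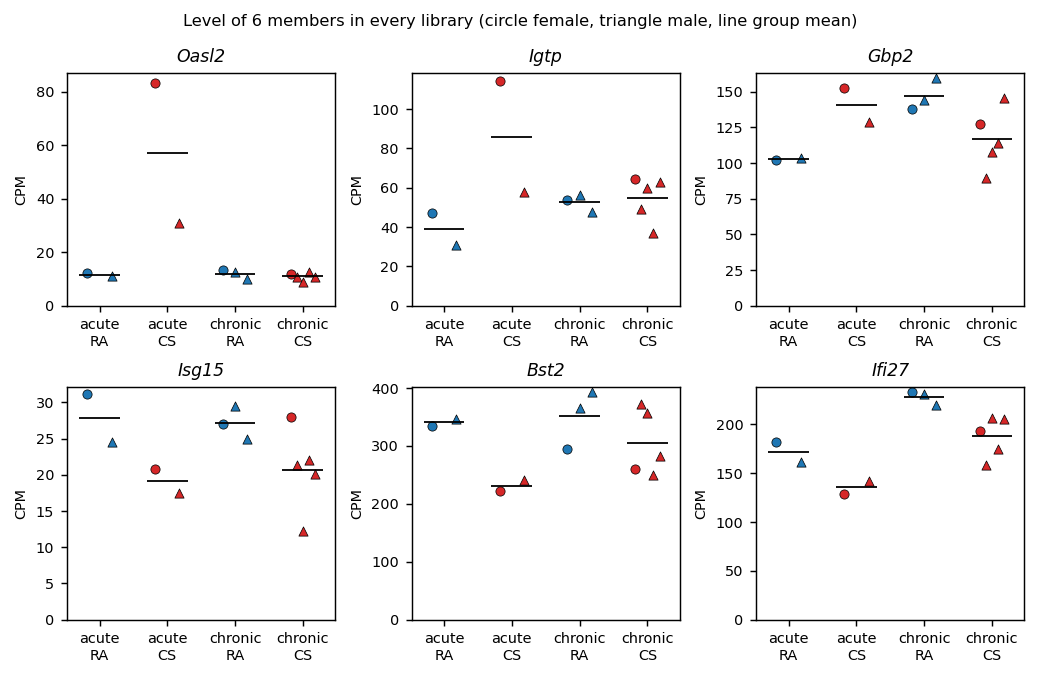
Level in CPM of Oasl2, Igtp, Gbp2, Isg15, Bst2 and Ifi27 in every library, with circles for females, triangles for males, blue for RA, red for CS and a line at the group mean. Oasl2 reaches 83.3 and 31.0 in acute CS and stays at 13.4 or below in the other 10 libraries, while Isg15 and Bst2 are lower in acute CS than in acute RA.

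Markers of other cells also differed between the chronic groups. Alveolar epithelial markers, of which 7 of 8 were higher in each CS than in each RA library, summed to 241 to 459 CPM in chronic RA and 898 to 4530 in chronic CS, mesenchymal markers (6 of 9) to 120 to 148 against 211 to 350, and neutrophil markers (5 of 7) to 5.19 to 14.1 against 22.9 to 163. Ly6g was at 0 in chronic RA. Leukocyte markers summed to 142 to 204 against 132 to 356, and lymphatic endothelial markers to 18700 to 21400 against 13700 to 20100 CPM. Monocyte and dendritic cell markers summed to 9.04 to 28.8 against 11.1 to 77.5 CPM. Sums of alveolar macrophage markers were 617 to 715 against 649 to 1080. Those of blood endothelial markers (3 of 10 above RA in each CS library) were 3300 to 3390 against 2590 to 3620. Lymphoid markers (2 of 9 below) summed to 35.0 to 56.5 against 28.6 to 46.0 CPM. The part of these values in the members' levels was not tested.

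Whether the acute effect differed from the chronic effect was tested as the difference of the fold changes. No member passed an adjusted p of 0.05 by edgeR, where 0.452% of all genes did. By DESeq2, 1 member (2.3%) did, Oasl2, against 4.29% of all genes. For Oasl2 the difference was 2.42 ± 0.47 on the log2 scale (adjusted p = 0.0547 by edgeR, 0.000186 by DESeq2), and by edgeR the adjusted p ranged from 0.00992 without acute CS M to 0.296 without acute RA M. At an unadjusted p under 0.05, 8 members had a positive difference (18.2%), against 8.17% of all genes, and 0 a negative one, against 3.71%. The 8 became 2 without acute CS F (against 5.69% of all genes), 3 without acute RA M (5.42%), 5 without chronic RA M2 (6.39%) and 13 without acute CS M (7.46%). The largest of these after Oasl2 was that of Gbp3, at 1.36 ± 0.44 (adjusted p = 0.22, edgeR). The acute CS libraries with their other cell markers enter each of these differences.

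The control groups were compared to see whether the members differed between room air mice of the acute and chronic arms. Age, exposure length and pooling changed together between these arms and cannot be told apart. No member and no gene (0%) passed an adjusted p of 0.05 by edgeR. By DESeq2 0 members passed, against 1.18% of all genes. At an unadjusted p under 0.05, 5 members were higher in chronic RA (11.4%), against 4.52% of all genes, and 0 were lower, against 2.5%. The 5 became 0 without acute RA M (against 2.84% of all genes), 2 without chronic RA F (3.36%) and 3 without any other of these libraries. Without overlap between the groups, 8 members were higher (18.2%), against 17.7% of all genes, and 2 were lower (4.5%), against 17%. The 5 members were Ifi27, Gbp2, Gbp3, Oasl1 and Ifih1, with log2 differences of 0.41, 0.51, 0.87, 0.89 and 0.57. Gbp2, Gbp3, Oasl1 and Ifi27 were also among the 6 with lower values in chronic CS, a comparison that shares the chronic RA libraries. In chronic CS their mean levels were 117, 43.9, 3.40 and 188 CPM, where acute RA had 103, 41.0, 3.44 and 172 CPM. Markers of other cells differed between the control groups too. From acute to chronic RA, lymphoid markers summed to 15.6 and 18.4 against 35.0 to 56.5 CPM (3 of 9 without overlap), erythroid markers to 37.7 and 69.9 against 196 to 433 (4 of 6), and lymphatic endothelial markers to 13600 and 15400 against 18700 to 21400 (5 of 7), and their part in the members' levels was not tested.

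The other genes of the pathway were followed in lists of their own. At an adjusted p under 0.05, 2.75% of all genes rose and 0.723% fell in acute CS. Of 8 kinases, transducers and inhibitors tested, 1 rose, Ptpn6, a phosphatase of blood cells, from 4.31 and 10.5 CPM to 156 and 47.4 (adjusted p = 0.0468, edgeR). Jak1 ran from 469 to 687 CPM, Socs3, a feedback inhibitor, from 216 to 695 CPM and Pias1 from 86.2 to 125 CPM over the 12 libraries. Of 14 genes for the induction of interferon that were tested, 1 fell, Irf8, a factor best known from myeloid cells. Irf8 had 220 and 234 CPM in acute RA F and M and 134 and 140 in acute CS F and M, a log2 fold change of -0.73 ± 0.12 (adjusted p = 0.00856, edgeR). In the chronic mice it had 231, 214 and 230 CPM in RA and 171, 147, 157, 146 and 154 in CS, a log2 fold change of -0.54 ± 0.08 (adjusted p = 0.145 by edgeR, 1.09e-07 by DESeq2). Irf8 was lower in every CS library than in every RA library of its time point. Tmem173 (Sting) ran from 64.1 to 190 CPM and Irf3 from 108 to 193 CPM, with the lowest value of Tmem173 in acute CS F.

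Of 40 further interferon-stimulated genes, 4 rose in acute CS, against 2.75% of all genes, and 0 fell, against 0.723%. In chronic CS 0 passed by edgeR, as for all genes (0%). Sp100, a nuclear body protein, had 28.1 and 14.1 CPM in acute RA F and M and 143 and 83.2 in acute CS F and M, a log2 fold change of 2.42 ± 0.36 (adjusted p = 0.00695, edgeR). Its acute and chronic effects differed by 2.73 ± 0.43 (adjusted p = 0.0395, edgeR). This call was lost without any single library of the study except acute CS M and chronic CS M2 and M3, with an adjusted p from 0.0534 to 0.2. Lgals3bp had 45.2 and 33.7 against 172 and 74.6 CPM, Phf11b 1.25 and 3.06 against 16.8 and 15.3, and Slfn1 0.727 and 0.795 against 20.04 and 3.36. Without acute CS F, Sp100 alone of these 4 kept an adjusted p under 0.05 (0.0436, edgeR; 0.0898 without acute RA M), and Irf8 had 0.0672 and Ptpn6 0.318. With the acute groups fitted alone none of the 6 calls was kept, and the adjusted p ran from 0.0962 for Irf8 to 0.162 for Lgals3bp (edgeR). With sex as a covariate Slfn1 (0.0766) and Ptpn6 (0.0799, edgeR) were lost. The highest levels per length in this group were those of Ifitm3, between 846 and 1137 CPM, Ly6e, between 2213 and 3119 CPM, and Ifitm2, between 65.3 and 108 CPM. In chronic CS 32 of the 40 were below 0, with a median of -0.19.

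Several Trim genes of chromosome 7 stood at different levels in the acute and chronic arms of the study. This list was added because earlier results of these data had named some of its genes. Trim12a had at most 0.227 CPM in the 4 acute libraries and 26.2 to 68.5 in the 8 chronic libraries, Trim30d at most 0.087 against 1.995 to 25.2, and Trim5 at most 0.282 against 2.24 to 7.99. Trim12c went the other way, with 53.5 and 46.2 CPM in acute RA and 18.6 to 25.6 in chronic RA. Between the control groups the adjusted p by edgeR was 0.0693 for Trim12a and 0.155 or more for the others. Trim30a, Trim12c and Trim34a, the highest of the list per length, were detected in all 12 libraries.

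Summed over all 44 members, the level was 2843 and 2390 CPM in acute RA F and M, 3190 and 2277 in acute CS F and M, 2743 to 2915 in chronic RA and 2294 to 2752 in chronic CS. By this sum, to which abundant members add most, the male acute CS library was the lowest and the female acute CS library the highest, and 4 of the 5 chronic CS libraries lay below the chronic RA range, while chronic CS M4 reached into it. By the members' mean log2 CPM acute CS F was again the highest (5.44), but acute CS M (4.72) was above acute RA M (4.51) and above chronic CS F and M1 to M3 (4.25 to 4.58). Members with and without the response element core had median log2 fold changes of 0.26 and 0.21 in acute CS and of -0.28 and -0.09 in chronic CS (17 and 16 members). Those with and without the gamma-activated site core had 0.66 and 0.20 in acute CS and -0.07 and -0.25 in chronic CS (9 and 24 members). These medians are descriptions without a test.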

How the data were processed

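Counts per Ensembl gene were deposited for 12 libraries. The authors trimmed reads with Skewer, checked them with FastQC 0.11.9 and Minion, aligned them to GRCm38 with STAR and took its GeneCounts values, which are raw read counts. The annotation release and strand setting are not given in the sources used here. Gene symbols, positions and exon lengths came from GENCODE M21, in which 147 of 52636 identifiers were not found. All 12 libraries were fitted by group with edgeR 4.0.16 (TMM factors, filterByExpr, quasi-likelihood F-test, R 4.3.3) and p-values were adjusted after Benjamini and Hochberg over the 21440 genes tested, with a limit of 0.05. The fit was checked on simulated counts. CPM uses TMM-scaled library sizes, FPKM divides it by exon length in kilobases, log2 CPM within sex used a prior count of 2, and figures were drawn with matplotlib 3.10.9 from tables made in Python 3.11.15 with pandas 2.3.3. Alternatives were DESeq2 1.42.0, no TMM factors, no filter, the compared groups alone, sex as a covariate, a replicate block and each library left out. The members and gene lists were chosen with earlier results of these data known. Values in every library are given for members past the limit in any comparison, the highest in FPKM of each role group, the lowest p of each comparison and 12 members set by name, and others are named for an unadjusted p under 0.05 or lower or were chosen after their values were seen. Pathway genes are named where past the limit, for the 3 highest levels of a list and for ligands and receptors. Lists of plasmacytoid dendritic cell and erythroid markers gave sums of 477 to 813 and 9.69 to 698 CPM. P-values measure the spread between libraries, which in the acute groups are pools.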

Additional observations from a re-analysis of the deposited data

Results flagged for a closer look

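Among the 5 chronic CS libraries, a single library stood apart from the others for 2 members on the log2 CPM scale. The measure was the gap to its nearest neighbour relative to the whole range, 0.841 for each member with a limit of 0.71. It was taken on log2 CPM, which stretches low values, and not on the CPM given here. Ifit3b was at 2.20 CPM in chronic CS M2, where the median of the other libraries was 11.6 CPM, and 45% of its 50-base stretches also occur in other genes, mostly Ifit3. Oas1a was at 0.0 CPM in chronic CS M1, where the median of the others was 1.62 CPM. Chance alone would set apart about 1 in 20 such groups, and 44 members were examined.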

How the results depend on the processing

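The number of members past the adjusted limit in acute CS was 1 by edgeR with all libraries. It was 5 (11.4%) by DESeq2 (Irf1, Oasl2, Trim25, Dtx3l and Igtp), against 9.15% of all genes, 0 with the compared groups alone, against 0.701%, and 0, against 0.34%, with a replicate block that pairs libraries of the same sex and number. It ranged from 0 to 4 when a library was left out, with 0 without acute CS F (0.768% of all genes) or acute RA M (0.013%), 4 without acute CS M (3.73%), and Dtx3l in place of Oasl2 without acute RA F (0.342%). In chronic CS it was 0 in each setting except DESeq2, which gave 1. For the difference of the effects it was 0, with 1 by DESeq2 (4.29% of all genes), 1 without the filter (0.595%) and a range of 0 to 2 when a library was left out (2 without acute CS M, 1.14%). Correlations of same-numbered deviations ran from -0.042 to 0.069. In acute groups of 2 libraries the deviations mirror each other, so the 2 acute values are the same number. With so few libraries they cannot decide whether the labels pair them. The block changed no other count of members past the adjusted limit. At an unadjusted p under 0.05 (edgeR) it moved the 6 lower members in chronic CS to 8 (18.2%, against 7.92% of all genes). For the difference of the effects it gave 10 positive (22.7%, against 8.68%) and 1 negative (2.3%, against 3.6%). Of the 6 pathway genes past the limit in acute CS, Sp100 alone passed with the block (adjusted p = 0.0431, edgeR), and the others had 0.0733 to 0.239. Its difference of effects had 0.109 with the block, and the chronic median was -0.315, where that of all genes was -0.094. The median over members between control groups was 0.064 and ranged from -0.065 to 0.421 when a library was left out, the latter without acute RA F. The acute median was -0.206 without acute CS F, -0.039 without acute RA M, 0.394 without acute CS M and 0.268 without acute RA F. Scaling by library size alone moved the median of all genes to 0.1 in chronic CS and -0.104 between controls, and the members' medians to -0.122 and -0.043. Oas1a, Oas2, Oas3, Mx1 and Epsti1 had a count of 0 in at least 1 chronic CS library, the deepest among them for Oas3, and the part of depth was not tested.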
